A study of Mus musculus with 6 samples.

Results

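The genes described here are the vascular growth factors of the VEGF and angiopoietin families and their receptors. They are the 10 genes Vegfa, Vegfb, Vegfc, Pgf, Kdr, Flt1, Flt4, Angpt1, Angpt2 and Tek, found by symbol among the 33924 genes of the deposited table, and all 10 were present. Total RNA was sequenced from RPE/choroid, that is, retinal pigment epithelium (RPE) with the blood vessel bed that underlies it. The tissue was scraped from eyecups of wild-type C57BL/6J mice, with 2 eyes in each sample. There were 3 libraries from young mice, labelled 1-2 months old, and 3 from aged mice, labelled 20-24 months old in the titles and 22-24 months in the time field. The labels give all mice as male, but animals of both sexes and a somewhat higher age of the young group are named in the methods. No treatment and no altered allele is named for either group.

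For each gene, the value used here is 1 pooled mean, in normalized counts, over all 6 libraries. The same table holds the age comparison made by the authors as fold changes and p-values, which are not used here. No value per library was analysed, so young and aged mice are not compared below, and no SD or test accompanies a level. The table does not give the read depth of each library. The pooled means of all genes summed to 19192071 normalized counts, and 26681 genes had a mean above 0.

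Blood vessels grow and persist under the control of both families. VEGF ligands bind receptor tyrosine kinases on endothelial cells and drive their division, survival and permeability. The angiopoietins act through the receptor Tek, also known as Tie2, and set whether vessels are quiescent or open to remodelling. In the eye, the RPE is known to secrete VEGF-A towards the choriocapillaris, the fenestrated capillary bed that feeds the outer retina. Excess VEGF-A is the target of drugs given for neovascular macular degeneration.

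Stretches upstream of the start sites of Vegfa, Kdr and Tek are shown as the promoters of the main VEGF ligand, its main signalling receptor and the angiopoietin receptor. They are from RefSeq, build GRCm38.p6, written 5′ to 3′ on the strand of the gene, and end before the first base of the RefSeq start or of the GENCODE gene, whichever lies further upstream. Capitals mark GGAA (the core bound by ETS factors, which act in endothelial genes), ACGTG or GCGTG (the core bound by hypoxia-inducible factors), GGGCGG (the GC box) and TATAAA (the TATA box), searched on both strands, so that a match on the other strand reads TTCC or CCGCCC, for example. Adjacent matches can touch and then form 1 run of capitals.
Vegfa, chr17:46032378-46032627, minus strand: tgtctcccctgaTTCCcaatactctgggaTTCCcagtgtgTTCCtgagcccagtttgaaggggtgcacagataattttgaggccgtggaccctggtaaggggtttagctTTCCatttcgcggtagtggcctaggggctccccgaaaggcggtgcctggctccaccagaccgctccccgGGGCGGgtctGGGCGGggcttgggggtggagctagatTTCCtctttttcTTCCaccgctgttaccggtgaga
Kdr, chr5:75978459-75978705, minus strand: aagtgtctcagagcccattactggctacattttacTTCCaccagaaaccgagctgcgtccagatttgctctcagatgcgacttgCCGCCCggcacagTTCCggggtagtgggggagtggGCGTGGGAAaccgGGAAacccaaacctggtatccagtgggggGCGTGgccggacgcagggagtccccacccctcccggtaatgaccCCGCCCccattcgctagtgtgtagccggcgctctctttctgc
Tek, chr4:94739039-94739288, plus strand: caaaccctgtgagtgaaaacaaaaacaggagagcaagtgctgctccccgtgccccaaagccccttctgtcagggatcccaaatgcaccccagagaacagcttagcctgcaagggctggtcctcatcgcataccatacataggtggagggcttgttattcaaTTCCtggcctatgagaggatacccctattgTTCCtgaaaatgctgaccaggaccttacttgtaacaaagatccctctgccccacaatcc

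The 3 stretches differed in base composition. That of Tek was 51.2% G and C with 2 CG dinucleotides, that of Vegfa 59.2% with 11, and that of Kdr 61.5% with 16. The ETS core occurred 6 times upstream of Vegfa, 4 times upstream of Kdr and 2 times upstream of Tek. Kdr also held 2 hypoxia response cores, against 0 in the printed windows of Vegfa and Tek. The window before the other start site of Vegfa, at 46025163 within the gene, held 2 of them and is not printed. GC boxes were found 2 times each upstream of Vegfa and Kdr and 0 times upstream of Tek. RefSeq promoters were matched for 8 of the 10 genes, with 10 start sites between them, since Vegfa and Pgf have 2 each. In the 250 bases before those sites, the ETS core was present in 8 of 10, against 93.4% of all 32851 promoters. A GC box was present in 8 of 10, against 32.7% of all promoters, and the hypoxia response core in 5 of 10, against 38.6%. The TATA box was found in 1, that of Flt1, against 12.4%. Upstream GC content ran from 51.2% for Tek to 76.4% for Vegfb, with a median of 52.4% over all promoters. These matches are letters in a short window and are not measured binding sites.

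All 10 genes were expressed in RPE/choroid. Their pooled means lay between 296 and 6377 normalized counts, whereas the median gene above 0 had 82.1, and 67.4% of the genes above 0 reached a mean of 10. Ranked among the 26681 genes above 0, the 10 genes lay between percentile 63.6 and percentile 98.7. The methods name TPM, a unit already scaled for length, as the step before the normalized counts, so the relation to length was checked. Among 13827 protein-coding genes with a mean of at least 10, the median pooled mean was 275 normalized counts in the fifth with the shortest coding transcripts and 1018 in the fifth with the longest, a rise with length such as counts show. Per kb of the longest coding transcript, the medians of the same groups were 218 and 144. Levels of different genes are therefore compared below per length. The check used the longest coding transcript and does not decide between definitions of length. The scale used is per kb of annotated exons (GENCODE M21, the same build, GRCm38) unless another is named. On that scale the order from high to low was Vegfa, Angpt1, Kdr, Tek, Pgf, Flt1, Vegfb, Vegfc, Angpt2 and Flt4. With the length of the longest coding transcript instead, Kdr (1077 per kb) came before Vegfa (1062), so the order of these genes depends on the length. With 1 pooled value per gene, it cannot be said which neighbours in this order differ beyond the spread between mice.

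Among the ligands of the VEGF family, Vegfa predominated. This gene, which encodes the ligand of Kdr and Flt1, lies on the minus strand of chromosome 17 at 46016993 to 46032369. It had a pooled mean of 3665 normalized counts, above 96.7% of the genes above 0, and a level of 855 normalized counts per kb of exons. The level per kb of Vegfa was 57.4% of the summed level of the 4 ligands. The annotation lists 8 coding transcripts of Vegfa with 6 coding lengths from 438 to 1176 bases, and splicing of this gene is known to give isoforms that differ in their binding to heparan sulfate. The pooled mean is 1 value for the gene, so the isoforms could not be separated.

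Pgf, the placental growth factor, which binds Flt1 but not Kdr, was the next ligand. Located on chromosome 12 at 85166635 to 85177790, it had a pooled mean of 868 normalized counts and 299 per kb, which made 20.1% of the ligand sum. The level per kb of Vegfa was 2.86 times that of Pgf, a ratio that was 1.74 with the coding length and 4.22 without length scaling. With the coding length, Pgf made 31.6% of the ligand sum. Vegfb, also a ligand of Flt1, lies on chromosome 19 at 6982473 to 6987651 and had a pooled mean of 344 normalized counts. With the shortest exons of the 10 genes, 1605 bases, its level per kb was 214, or 14.4% of the sum, against 6.65% without length scaling and 9.14% with the coding length. The ratio of Vegfa to Vegfb was 3.99 per kb of exons and 10.7 without length scaling. Hence Vegfb stood higher per kb than Vegfc by more than their pooled means show.

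Vegfc, the main ligand of Flt4 and a growth factor of lymphatic vessels, had the lowest pooled mean of the 10 genes. Its mean on chromosome 8 at 54077606 to 54187096 was 296 normalized counts, with 121 per kb and 8.10% of the ligand sum. Its level was below that of Vegfa by a factor of 7.09 per kb, 12.4 without length scaling and 13.1 with the coding length. With the coding length, Vegfc held 4.20% of the ligand sum. Vegfd, the other ligand of Flt4, is listed under its older symbol Figf and had a pooled mean of 59.8 normalized counts and 24.9 per kb. The ligands of Flt4 were therefore the lowest of the VEGF family on this scale.

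Kdr was the most abundant of the VEGF receptors. This gene encodes VEGFR2, the receptor that carries most of the mitogenic signal of VEGF-A, and lies on the minus strand of chromosome 5 at 75932827 to 75978458. Its pooled mean of 6377 normalized counts was above 98.7% of the genes above 0, and its level was 706 per kb of exons. Kdr held 67.8% of the summed level per kb of the 3 VEGF receptors.

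Flt1 encodes VEGFR1, which binds VEGF-A tightly, signals weakly and is known to act as a decoy. It lies on chromosome 5 as well, at 147561604 to 147726011, and had a pooled mean of 3517 normalized counts. Its level was 260 per kb, or 25.0% of the receptor sum, and Kdr exceeded it 2.71-fold per kb. The annotation gives Flt1 exons of 13504 bases, the longest of the 10 genes, against 6895 bases in its longest coding transcript. With the latter length, the level of Flt1 was 510 per kb and that of Kdr 1077, a 2.11-fold difference. The ratio of Kdr to Flt1 was 1.84 with the coding length and 1.81 without length scaling, and Flt1 then made 33.2% and 33.5% of the receptor sum. There are 2 coding transcripts of Flt1, with coding lengths of 2064 and 3999 bases, and the gene is known to give a secreted form that lacks the membrane span. Their proportions cannot be read from the pooled mean.

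Flt4, which encodes VEGFR3, the receptor of Vegfc, had the lowest level of the 10 genes per kb of exons. With the longest coding transcript, Angpt2 (90.1 per kb) was below Flt4 (99.0). On chromosome 11 at 49609263 to 49652739, Flt4 had a pooled mean of 619 normalized counts and a level of 75.2 per kb, or 7.22% of the receptor sum. Kdr was 9.39 times as abundant per kb. Thus Flt4 was low next to Kdr, as its ligand Vegfc was next to Vegfa. Whether Flt4 came from lymphatic or other vessels was not tested. The 5 markers of lymphatic endothelium were mixed. Pdpn (5258 normalized counts) and Reln (3777) led that list, and both are also expressed outside lymphatic vessels. Prox1, the transcription factor that defines these cells, had a pooled mean of 165 normalized counts and 19.7 per kb of exons. Lyve1 had a pooled mean of 99.4 and 34.0 per kb. Both were under 37.9 per kb, the median over the genes above 0 with one gene model. Ccl21a was listed at 0, and so was its near-identical copy Ccl21c, while the copy Ccl21b had 0.399.

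**Figure D1:**
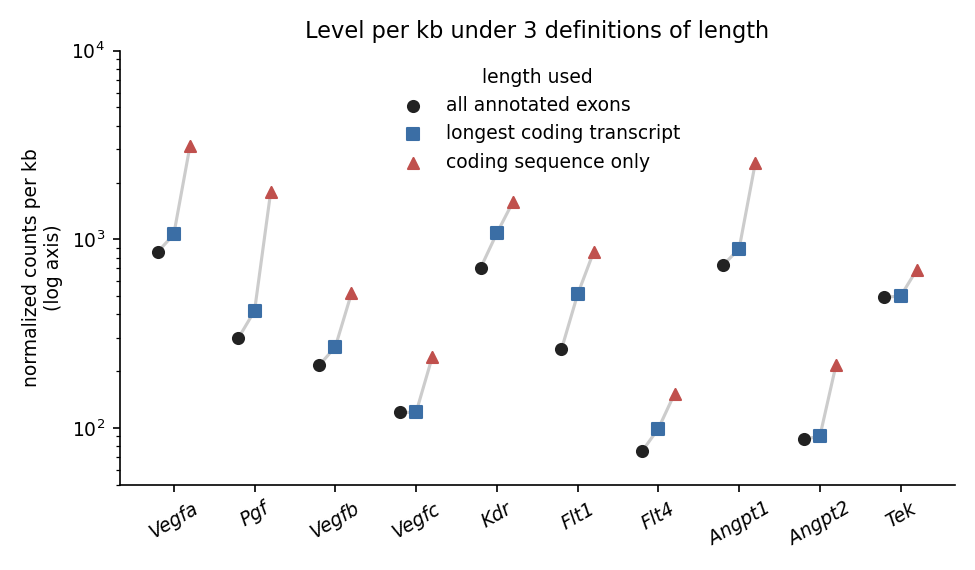
Normalized counts per kb (log axis) of the 10 genes, from pooled means over all 6 libraries, with length taken as all annotated exons (circles), the longest coding transcript (squares) or the coding sequence alone (triangles). Per kb of exons the values run from 75.2 for Flt4 to 855 for Vegfa. Vegfa, Angpt1 and Kdr lead with all exons and with the longest coding transcript, and Vegfa, Angpt1 and Pgf with the coding sequence alone.

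The angiopoietins lay far apart. Angpt1, the agonist of Tek, which is made by mural and mesenchymal cells and stabilises vessels, had a pooled mean of 3792 normalized counts and a level of 728 per kb of exons. It lies on the minus strand of chromosome 15 at 42424723 to 42676977. Angpt2, which is stored in endothelial cells and can antagonise Tek, lies on chromosome 8 at 18690263 to 18741562. It had a pooled mean of 321 normalized counts and 87.0 per kb, so that Angpt1 exceeded it 8.38-fold per kb. Angpt4, the remaining ligand of Tek, was lower still, with a pooled mean of 43.8 normalized counts and 18.8 per kb.

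The value of Angpt1 carries a caveat on its reads. An antisense gene, Gm17473, overlaps 737 bases of its exons on the opposite strand, and its own pooled mean was 26.1 normalized counts. The libraries were stranded, but the sources used here do not state that the counting used strand. Of the 31-base words in the transcripts of Angpt1, 85.9% occur in no other gene on either strand. For the other 9 genes this share ran from 99.29% to 100%, and no other gene overlapped their exons.

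Tek, the receptor of the angiopoietins, lies on chromosome 4 at 94739289 to 94874976. Its pooled mean was 2323 normalized counts, above 93.4% of the genes above 0, and its level was 493 per kb of exons. The level of Kdr was 1.43 times that of Tek per kb of exons, 2.16 times with the longest coding transcript, 2.29 times with the coding length and 2.74 times without length scaling. Per kb of exons Tek stood between Kdr and Flt1. Under the other 3 settings Flt1 was above Tek, by 510 to 499 per kb with the longest coding transcript and by 860 to 690 with the coding length.

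**Figure D2:**
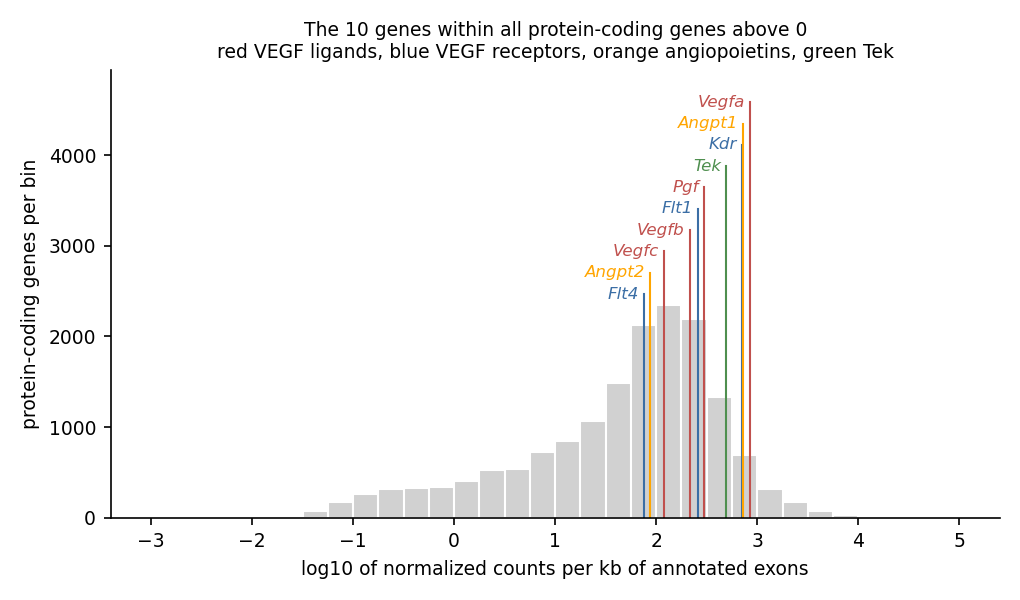
Distribution of the log10 level per kb of exons over 16446 protein-coding genes with a pooled mean above 0 (grey bars, genes per bin), with a coloured line at each of the 10 genes. Flt4, at 75.2 per kb, lies near the median of 76.7, and Vegfa, at 855, is above 95.4% of these genes.

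Set against protein-coding genes alone, the lower members stood near the middle. The median level of the 16446 protein-coding genes above 0 was 76.7 normalized counts per kb. Flt4 lay at percentile 49.5 of these genes, Angpt2 at 53.1 and Vegfc at 60.8. By contrast, Kdr lay at percentile 94.0, Angpt1 at 94.3 and Vegfa at 95.4. Tek followed at 90.4, Pgf at 82.6, Flt1 at 79.8 and Vegfb at 75.2. The members thus ran from the middle of the distribution to its upper tail, as the plot of that distribution shows.

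The other genes of both pathways, and of those around them, were given by lists. Nrp1, the neuropilin that serves as a co-receptor of Kdr, had a pooled mean of 10257 normalized counts and a level of 1048 per kb, which is 1.48 times that of Kdr per kb of exons and 2.65 times with the longest coding transcript. Nrp2, the neuropilin that also binds VEGF-C, had 490 per kb. Tie1, the orphan partner of Tek, had 442 per kb, and Ptprb, the endothelial phosphatase that dephosphorylates Tek, had 398 per kb. For comparison, Tek had 493 per kb. Which of these genes is higher depends on the length, since the ratio of Tie1 to Tek was 0.897 per kb of exons and 1.03 with the longest coding transcript. That of Ptprb to Tek was 0.807 per kb of exons, 0.892 with the longest coding transcript and 2.28 without length scaling. Of the 48 genes on the 5 pathway lists, 48 had a pooled mean of at least 10. So did 67.4% of all genes above 0, and 13827 protein-coding genes against 16446 above 0. Reaching this cut therefore says little about these pathways. The median level of the 48 genes was 319 per kb, against 280 for the 10 members.

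Upstream of Vegfa, the 8 genes of oxygen sensing had a median of 407 per kb. Hif1a and Epas1, the alpha subunits of hypoxia-inducible factors 1 and 2, had the highest pooled means, 10427 and 6201 normalized counts. Their levels were 1769 and 1109 per kb. Egln1, the main prolyl hydroxylase that marks these subunits for degradation, had 452 per kb. Downstream of the receptors, the 12 signalling genes had a median of 383 per kb. The phosphoinositide 3-kinase genes Pik3r1 (regulatory subunit) and Pik3ca (catalytic subunit) had 605 and 386 per kb, and the phosphatase gene Ptpn11 had 544.

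Genes of vessel patterning and maturation had the lowest median of the pathway lists, 124 per kb over 14 genes. Pdgfrb, the PDGF receptor of pericytes, led that list with a pooled mean of 4839 normalized counts and 883 per kb. Jag1, a Notch ligand, had 352 per kb and the receptor Notch1 had 116. Secreted inhibitors of vessel growth had the highest median, 789 per kb over 8 genes, but spread widely. Sema3e (15.2), Sema3a (21.1), Vash1 (156) and Col18a1 (557 per kb) lay below that median. Timp3, an inhibitor of metalloproteinases that also blocks binding of VEGF-A to Kdr, had a pooled mean of 41188 normalized counts and 5057 per kb, which is 5.91 times the level of Vegfa (11.2 times without length scaling). Thrombospondins Thbs1 and Thbs2 had 4173 and 1022 per kb. Serpinf1, which encodes the antiangiogenic factor PEDF secreted by the RPE, had 2346 per kb, or 2.74 times the level of Vegfa (1.51 times without length scaling).

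**Figure D3:**
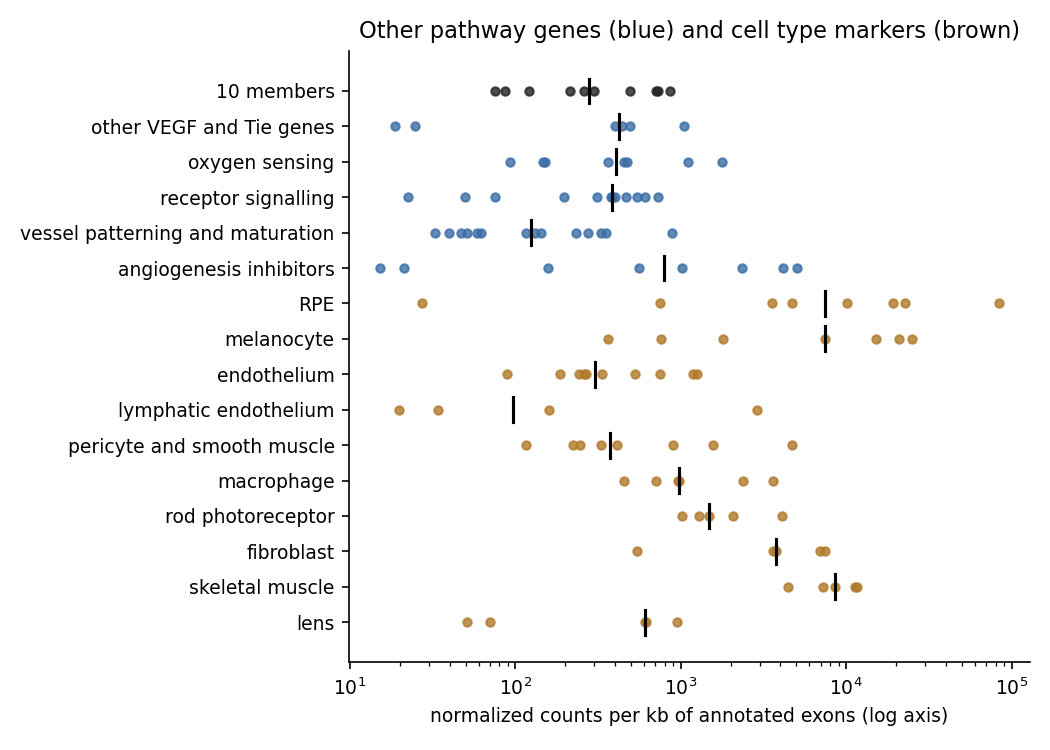
Normalized counts per kb of exons (log axis) for each gene of the members (black), the pathway lists (blue) and the cell type marker lists (brown), with a black bar at the median of each list. Kdr, Flt1 and Tek lie within the range of the endothelial markers, and every other marker list except that of the lens has a gene above the highest endothelial marker. Ccl21a, listed at 0, is not drawn.

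Marker genes were used to check the tissue. All 8 RPE markers had a pooled mean of at least 10, a level that 67.4% of all genes above 0 reach. They were led by Ttr (99321 normalized counts) and Rgr (92190). Best1, a chloride channel of the RPE on the same list, was low at 69.8, under the median gene above 0. Likewise, all 7 melanocyte markers reached a mean of 10, led by Dct (89145) and Tyrp1 (59379). Sox10 was the lowest of them at 1110. How much of these levels came from the RPE and how much from melanocytes was not tested. The 10 endothelial markers had pooled means from 473 to 4290 normalized counts, with Vwf and Emcn (2866) on top. The receptors are set beside them here, but which cells carry the receptors was not tested. Per kb, the level of Kdr was above 7 of these 10 markers, that of Tek above 6, that of Flt1 above 3 and that of Flt4 above 0. With the longest coding transcript, these numbers were 6, 5, 5 and 1. Mural cell markers, all 8 read, ran from 627 to 21346 normalized counts, with Rgs5 the highest and Acta2 (3453) the next. Defining markers of pigmented, endothelial and mural cells were thus read, with Best1 as the low one.

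Marker genes of other cells and tissues were also read. According to the methods, the lens, muscles, connective tissue and neural retina had been dissected away before the scraping. The 5 rod photoreceptor genes given here had pooled means from 2159 to 13165 normalized counts, with Sag and Gnat1 (12334) at the top. Skeletal muscle genes ran from 11414 to 51830, with Myh4 and Acta1 (17441) the highest. Fibroblast genes ran from 5470 to 45848, with Col1a1 and Dcn (43430) the highest, and macrophage genes from 1224 to 4063, with Csf1r and C1qa (3779) the highest. Lens genes were lower, from 112 to 1973, with Cryaa and Crybb2 (1224) the highest. Several of these cells are known to make Vegfa, Vegfb or Angpt1, and the share of each cell type in the levels above was not tested. In bulk tissue, the number of cells of a type and the amount of RNA per cell cannot be told apart.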

How the data were processed

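Total RNA was depleted of ribosomal RNA, without selection for poly(A) tails, and stranded libraries were sequenced from 6 mouse RPE/choroid samples, 3 young and 3 aged. According to the methods and the processing notes of the submitters, the authors trimmed reads with BBDuk, mapped them with STAR to Ensembl transcripts of GRCm38, quantified transcripts with Sailfish as TPM, turned these into normalized counts by total count scaling and ran DESeq2 on the ages. The deposited table gives 1 normalized signal per gene (baseMean), the mean over all libraries pooled. Its remaining columns hold the comparison made by the authors (fold changes, standard errors, statistics, p-values and adjusted p-values) and were not used. The table held 0 columns of values per sample. The depth of each library is therefore unknown here, and neither intervals and tests nor fits without 1 library were possible.

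Symbols were matched to GENCODE M21 gene models, with 1 model for 84.0% of the 33924 genes. Levels per kb are the pooled mean divided by the union of annotated exons. Percentiles give the share of genes with a lower value. Both functions were tested on simulated data. Motifs were searched in RefSeq promoters. Python 3.11.15 and pandas 2.3.3 were used.

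The members and gene lists were chosen with earlier results of these data known. The naming rule covered all members, the 3 genes with the highest pooled mean and any gene under 10 in each pathway list, and the 2 highest in each marker list. Vegfd, Angpt4, Tie1, Serpinf1, Sema3a, Sema3e, Vash1, Col18a1, Best1, Sox10, Prox1, Lyve1 and the Ccl21 genes were named beyond it after their values were seen. A planned marker gene is not reported here.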

Additional observations from a re-analysis of the deposited data

How the results depend on the processing

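No paired analysis was possible because only a mean over the pooled libraries was used, and for the same reason no library could be left out. Each of the 10 members reached a mean of 1, 30 and 100 as well as 10. At a minimum of 100, 45 of 48 pathway genes and 61 of 64 marker genes were left, against 48 and 63 at 10. Levels between genes depended on the length used. The share of Vegfa among the VEGF ligands was 57.4% per kb of exons, 70.9% without length scaling, 55.1% with the annotated coding length and 56.8% with the longest coding transcript. The share of Kdr among the VEGF receptors was 67.8%, 60.7%, 61.0% and 63.9% in the same order, and the ratio of Angpt1 to Angpt2 was 8.38, 11.8, 11.8 and 9.87. Of the 10 members, 6 kept their place in the order with the coding length and 2 with the longest coding transcript, where Kdr was first. The ratio of Vegfa to Kdr was 1.21 per kb of exons, 0.575 without length scaling, 1.97 with the coding length and 0.987 with the longest coding transcript, so which of them is higher depends on the length. Percentiles ran from 63.6 to 98.7 among genes above 0, from 71.4 to 99.0 among all genes and from 46.0 to 98.0 among genes of at least 10. The coding length from the annotation and the longest coding transcript were chosen as settings after seeing the data. The planned coding length from a protein table was not run, since no such table was used here.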
